A study of Mus musculus with 139 samples.

Results

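Mir101a and Mir101b are the 2 mouse genes of the miR-101 microRNA family described here, 2 of 6114 small RNA genes (2207 of them of the microRNA class) counted across 11 tissues. The pair was chosen because Mir101b was highest in liver, so the tissue levels below are a description and carry no test. The animals were 14 untreated wild-type C57BL/6J mice, an inbred strain, aged 3 months. Animals 1 to 10 were female and 11 to 14 male, and each gave up to 1 counted library per tissue. For the 3 testis-labelled libraries 6 samples are listed, some with no age given, and which of them were counted is unknown. The groups were 13 liver, 12 pancreas, 14 brain, 14 spleen, 14 kidney, 13 lung, 14 muscle, 13 heart, 12 intestine, 12 bone marrow and 3 testis-labelled libraries, 95 female and 39 male. All were whole tissue, in which fewer cells of a type and less RNA per cell cannot be told apart.

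A microRNA gene is transcribed as a longer precursor that folds into a hairpin. Nuclease cutting releases a duplex, and 1 arm is usually kept by an Argonaute protein, which it guides to messenger RNAs that pair with its seed, bases 2 to 8 from the 5′ end. The miR-101 family is conserved among vertebrates and is known for repressing EZH2, the histone methyltransferase of Polycomb repressive complex 2, and it is often reduced in liver cancer.

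The mature sequences show how alike the 2 products are. They are from RefSeq on GRCm38.p6, 5′ to 3′, with bases 2 to 8 in capitals.
miR-101a-3p: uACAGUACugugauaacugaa
miR-101b-3p: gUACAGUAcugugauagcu
miR-101a-5p: uCAGUUAUcacagugcugaugc
miR-101b-5p: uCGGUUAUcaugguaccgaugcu
The annotated miR-101b-3p starts 1 base further 5′ than miR-101a-3p, so bases 2 to 8 read UACAGUA in the former and ACAGUAC in the latter. Laid on the Mir101b hairpin, the 21 bases of miR-101a-3p matched at 20, with the single substitution A16G (positions counted from 1 at the 5′ end of miR-101a-3p). The 5p arms differed at 5 positions.

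The whole hairpins are shown with their mature arms in capitals, because the counted unit is the gene and both arms fall into 1 count.
Mir101a: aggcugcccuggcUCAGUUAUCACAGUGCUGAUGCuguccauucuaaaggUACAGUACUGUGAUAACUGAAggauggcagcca
Mir101b: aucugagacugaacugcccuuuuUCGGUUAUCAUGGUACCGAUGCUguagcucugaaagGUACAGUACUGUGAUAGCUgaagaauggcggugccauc
Mir101a (ENSMUSG00000065451) lies at chr4:101346945-101347027 of GRCm38 on the minus strand, in exon 2 of the long non-coding RNA gene E130102H24Rik. Mir101b (ENSMUSG00000065556) lies at chr19:29135279-29135375 on the plus strand, in intron 8 of Rcl1, a protein-coding gene for a factor of ribosomal RNA processing. The longest run shared by both hairpins was 20 bases, so a read that ends before the substitution could come from either gene. How such reads were counted is not given in the sources used here.

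Depth differed widely between tissues. Library totals ran from 10255 to 34095704 counts and 8 libraries held fewer than 100000, with a median of 990388 in liver and 100238.5 in pancreas. Mir101a received 2398807 counts in all (39 to 104188 per library) and Mir101b 958335 (8 to 273002), so each was detected in 134 of 134 libraries. Levels are given as CPM, each count divided by its library total and scaled to a fixed sum, with no scaling for hairpin length, since a small RNA read spans the mature product.

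The tissue labels were checked against marker microRNAs. Mir122 (hepatocytes) had a median of 26003 CPM in liver and 5.01 in the next tissue, Mir124a-1 and Mir9-2 (neurons) were highest in brain, Mir216a (acinar cells) in pancreas and Mir208a (cardiomyocytes) in heart. In the libraries labelled testis, Mir34c and Mir449a, which mark germ cells and ciliated cells, summed to only 29.4 to 30.9 CPM, against 2129 to 5836 in lung, so these libraries are named by their label only. Pancreas 11 held 81716 CPM of Mir215, a marker of intestinal epithelium that reached at most 1.60 CPM in the female pancreas libraries, and the pancreas levels and the male differences that change call without it are given without it as well.

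Mir101b stood apart in liver. Its level was 10006 ± 5825 CPM (SD, n = 13), with a lowest value of 3592, a median of 8429 and a highest of 22322. All 13 of 13 liver libraries lay above the highest library of any other tissue, a pancreas library at 3366 CPM. The liver median was 5.71-fold that of brain, the next tissue. With CPM scaled by the trimmed mean of M-values (TMM), it was 12.3-fold that of muscle, the next tissue on that scale. Among microRNA genes ranked by median CPM in liver, Mir101b was rank 12 of 324 with a median above 0.

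Below liver the Mir101b levels formed a continuous series. Brain was at 1514 ± 688 CPM (SD, n = 14; median 1477), pancreas at 1807 ± 1164 (n = 12; median 1244) and spleen at 1210 ± 944 (n = 14; median 686). Muscle (median 491 CPM), kidney (314), heart (304), bone marrow (293), intestine (242) and lung (239.9) followed. Each of these tissues overlapped the next in the order, so the ranks of neighbours do not differ beyond the spread of their libraries. Tissues further apart could differ: brain (609 to 2965 CPM) did not overlap intestine (48.9 to 417). The libraries labelled testis held 62.6, 76.4 and 86.6 CPM, which did not overlap lung, the tissue above them (88.3 to 1254), although the 3 male bone marrow libraries (31.8 to 51.7 CPM) and 2 intestine libraries (48.9 and 59.2) were lower still.

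Mir101a was not led by liver. Its order was pancreas (8862 ± 3751 CPM, SD, n = 12; median 9521), brain (7211 ± 3697, n = 14; median 6903), liver (3986 ± 2335, n = 13; median 3148) and kidney (3551 ± 2334, n = 14; median 2571). Spleen (median 1543 CPM), muscle (1516), lung (1404), heart (1135), intestine (656) and bone marrow (528) came next. The 3 libraries labelled testis, at 128, 133 and 151 CPM, were last by median, although the 3 male bone marrow libraries (median 87.1 CPM) were lower still. All neighbours in this order overlapped, and pancreas led brain by 1.38-fold in the medians. Without Pancreas 11 the pancreas libraries held 9322 ± 3562 CPM of Mir101a and 1900 ± 1172 of Mir101b (SD, n = 11), and the lead over brain was 1.43-fold. With TMM scaling kidney led instead, and the pancreas median was 0.628 of kidney's and 0.808 of brain's. Among microRNA genes Mir101a was rank 12 of 247 in pancreas, 14 of 454 in kidney and 24 of 622 in brain.

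**Figure D1:**
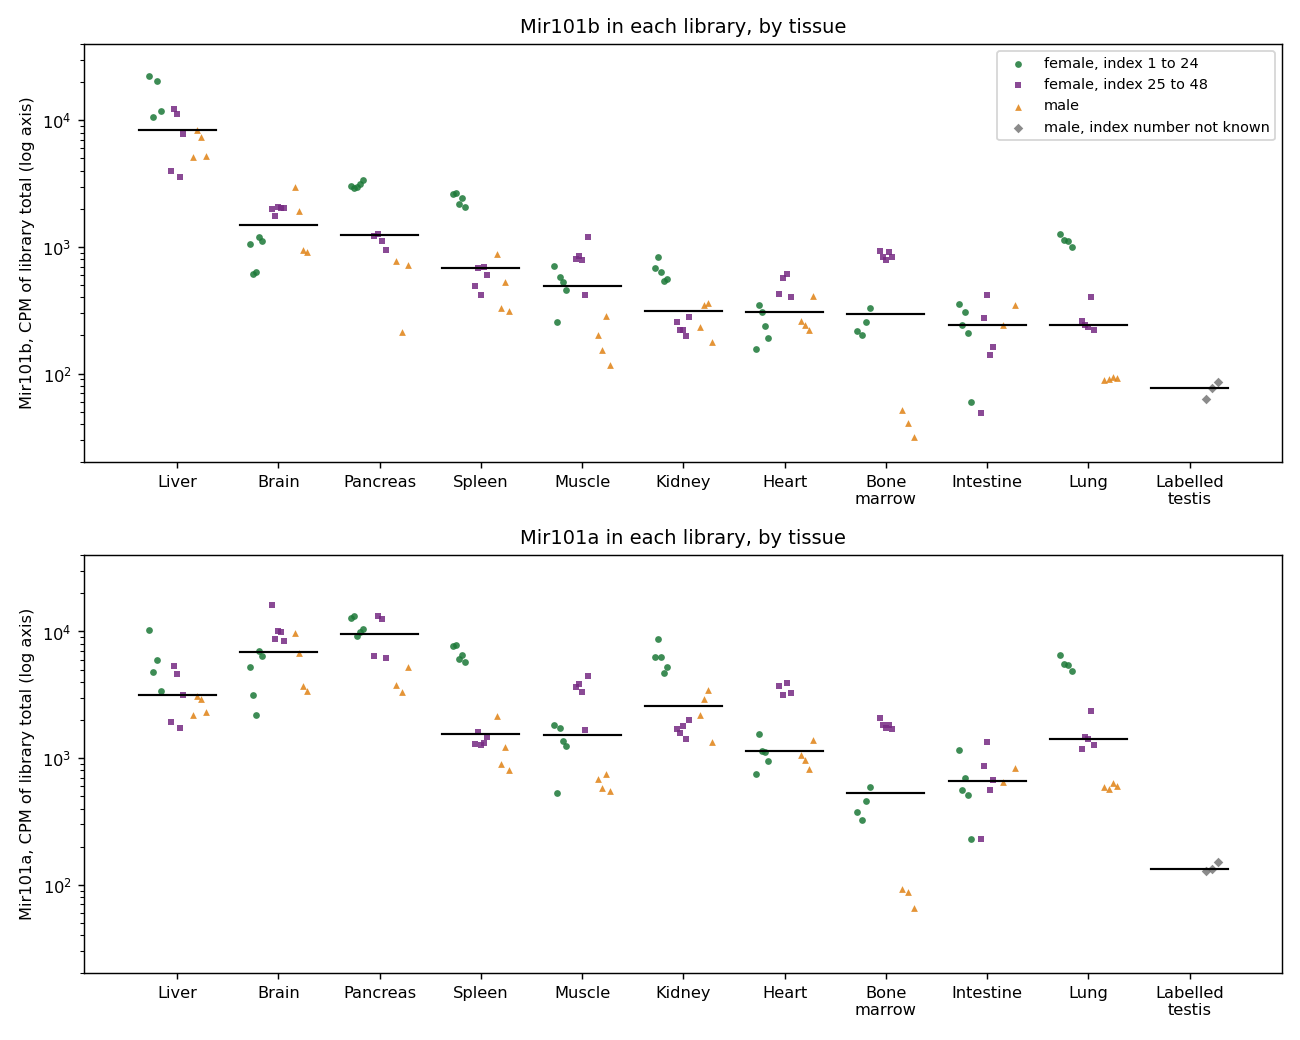
Each point is 1 library; the vertical log axes give Mir101b (top) and Mir101a (bottom) in CPM of the library total, black lines are tissue medians, and shapes mark females by index number range, males, and the libraries labelled testis. The 13 liver libraries (3592 to 22322 CPM) lie above all others in the top panel only.

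The same orders were read within animals, where libraries share their donor. Mir101b was highest in liver in 13 of 13 animals with a liver library, which follows from every liver library lying above all others. The second tissue was brain in 9 and pancreas in 4. The liver level was 1.75- to 7.75-fold that of the second tissue, with a median of 4.37-fold. Mir101a was highest in pancreas in 8 of 14 animals and in brain in 6. Animals 10 and 14, with brain first for Mir101a and second for Mir101b, had no pancreas library. Animal 11, with the same places for brain, had only Pancreas 11.

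The balance between the 2 genes separated liver from the rest. It was taken within each library as the log2 ratio of Mir101b to Mir101a counts, with 0.5 added to each count, and needs no library total. Differences in ligation or counting between the products would shift it, so its zero is no measure of equal molecules, and whether such a shift is the same in every tissue was not tested. Mir101b exceeded Mir101a in 13 of 13 liver libraries and in 0 of 121 others. The ratio in liver was 1.30 ± 0.24 (SD, n = 13; 1.03 to 1.79), and in the other tissues it ran from -3.93 to -0.68.

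As a share of both genes' counts, Mir101b made up 71.0 ± 3.31% in liver (SD, n = 13). The next shares were 35.2 ± 2.11% in the libraries labelled testis (n = 3), 34.0 ± 2.47% in bone marrow (n = 12) and 27.9 ± 2.54% in spleen (n = 14). Kidney was at the other end with 10.7 ± 1.36% (n = 14). Lung (15.0%), pancreas (16.0%, and 15.9% without Pancreas 11), heart (17.2%), brain (18.0%), muscle (23.3%) and intestine (24.6%) lay between. Liver, at rank 3 for Mir101a, was thus at rank 1 for Mir101b, while kidney, at rank 4 for Mir101a, was at rank 6.

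**Figure D2:**
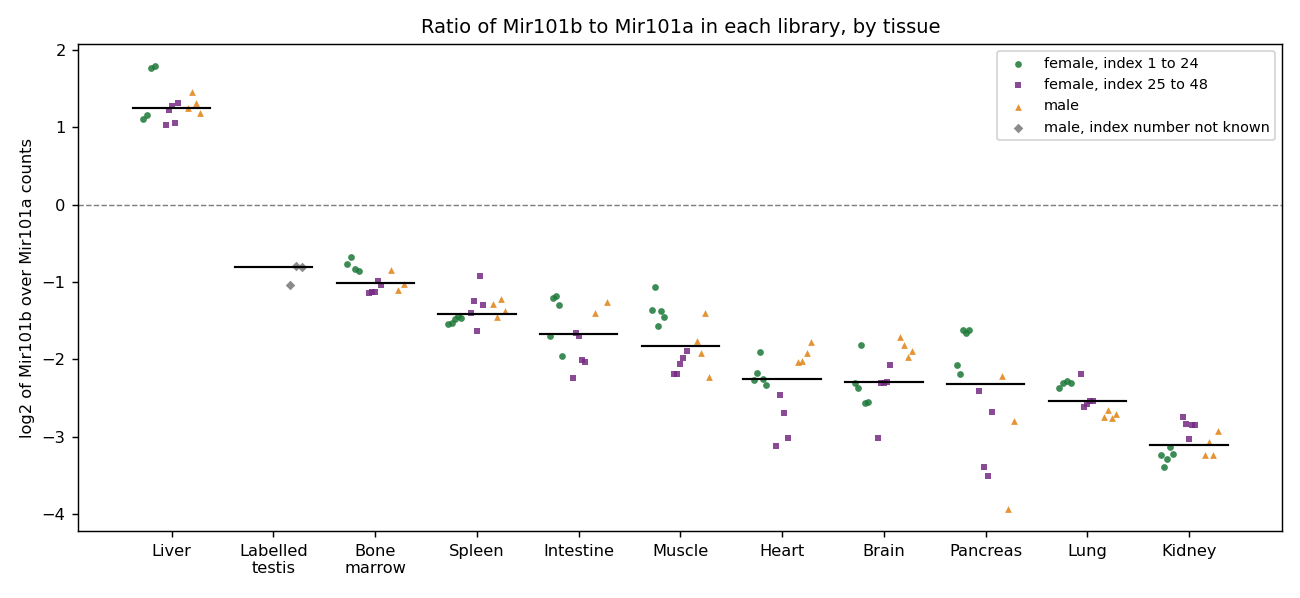
The log2 ratio of Mir101b to Mir101a counts (vertical axis) is shown for each library by tissue, with black lines at the medians, shapes as in the plot of levels, and a dashed line where the counts are equal. Only the 13 liver libraries lie above the dashed line.

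The ratio varied less than the levels. Its SD over libraries was below the SD of both log2 levels in 9 of 11 tissues. In bone marrow, Mir101a spanned a 31.7-fold range and Mir101b a 29.4-fold range, with SDs of 1.88 and 1.82 in log2 CPM, while the SD of the log2 ratio was 0.16. In lung the SDs were 1.34 and 1.49 for the levels and 0.19 for the ratio. Pancreas had the widest ratio, with an SD of 0.77, and 0.81 without Pancreas 11. Between libraries of 1 tissue the 2 levels thus varied together; they share the library total and could share reads.

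**Figure D3:**
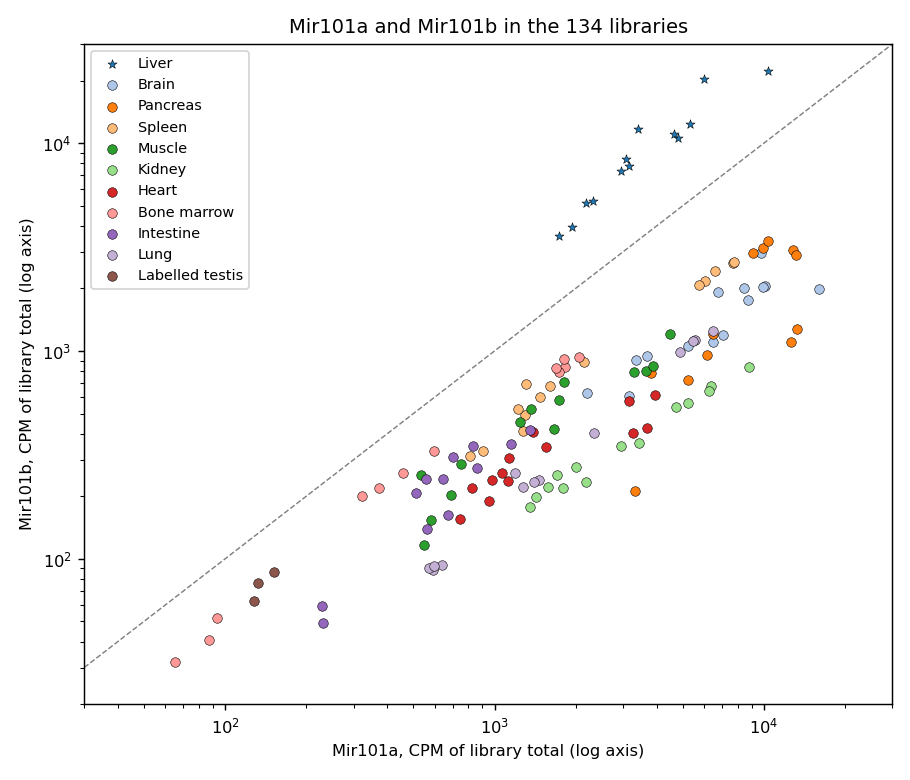
Mir101b (vertical) is plotted against Mir101a (horizontal) in CPM of the library total on log axes, 1 point per library, coloured by tissue, with a dashed line of equality. Libraries of a tissue run along diagonals; the liver libraries (stars) form a separate diagonal above the line.

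Part of the spread in levels followed the index numbers in the sample descriptions, an association seen only after the values were examined. The female libraries of each tissue fell into indexes 1 to 24 and 25 to 48, in pool N467 (liver, pancreas, spleen, kidney, lung) or N469 (brain, muscle, heart, intestine, bone marrow). The ranges also hold different animals, 1 to 5 and 6 to 10, except that animal 5 of lung and bone marrow is in the upper range. Within a tissue, index and animal thus cannot be told apart. In lung and bone marrow, too, the lower and upper range did not overlap for either gene, and the part of the animals was not tested. What the ranges stand for beyond the index is not given in the sources used here.

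In pool N467 the lower index range held more of both genes. Spleen medians of Mir101a were 6556 CPM (5 libraries, indexes 1 to 24) and 1312 (5 libraries, indexes 25 to 48), and those of Mir101b were 2421 and 603. The libraries of the lower range all lay above those of the upper for both genes, as they did for 9.82% of the 1314 genes tested. Kidney (Mir101a 6234 and 1704, Mir101b 639 and 222; background 13.2%) and lung (Mir101a 5500 and 1404, Mir101b 1124 and 239.9; background 19.0%) were split in the same way. In pancreas this held for Mir101b alone (3047 and 1161; background 8.68%). In liver the ranges overlapped, with medians of 16050 and 7777 CPM for Mir101b and 5377 and 3148 for Mir101a (background 1.07%).

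In pool N469 the upper index range was the higher one in the 3 tissues that split without overlap. Bone marrow medians were 416 (indexes 1 to 24) and 1817 CPM (indexes 25 to 48) for Mir101a and 238 and 835 for Mir101b, with no overlap, as for 27.5% of genes. Heart (Mir101a 1120 and 3483, Mir101b 236 and 499; background 21.8%) and brain (Mir101a 5249 and 9951, Mir101b 1061 and 2017; background 7.91%) also did not overlap. Muscle overlapped for both genes (background 20.2%). Intestine overlapped too (background 5.86%), and its Mir101b median was higher at indexes 1 to 24 (241 against 163 CPM). Counting tissues, the split without overlap was found for Mir101a in 3 of 5 tissues of each pool and for Mir101b in 4 of 5 and 3 of 5. The ratio also split without overlap, in 5 of 10 tissues. Its medians were higher at indexes 1 to 24 in pancreas (-1.65 against -3.03), muscle (-1.38 against -2.06), heart (-2.25 against -2.85) and bone marrow (-0.80 against -1.13), and lower in kidney (-3.23 against -2.84).

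The liver lead of Mir101b was present on each side of this split, as it must be where every liver library lay above all others. Only its size could differ. Within pool N467 the liver median was 16050 CPM against 3047 in pancreas, the next tissue, at indexes 1 to 24, and 7777 against 1161 at indexes 25 to 48. In the male pool N541 it was 6293 against 468 in pancreas at indexes 1 to 24. Over all pools the lead was 3.22-fold over pancreas at indexes 1 to 24 and 3.92-fold over brain at indexes 25 to 48. For Mir101a the pancreas median was 1.89-fold that of brain at indexes 1 to 24, where spleen was the next tissue and the lead 1.72-fold. At indexes 25 to 48 brain was higher with Pancreas 11 included, and the pancreas median was 0.742 of it. Without Pancreas 11 the order at those indexes was reversed, with medians of 9548 CPM in pancreas and 8695 in brain.

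Male and female libraries were compared within the 10 tissues that had both, a contrast that the choice of genes had not used. Males (animals 11 to 14) were all in pool N541 and females in the other 2, so sex, animal set and pool cannot be told apart. The test was edgeR's quasi-likelihood F test with TMM scaling, with p-values adjusted by Benjamini-Hochberg within a tissue over 1314 genes. Of the 20 differences (2 genes by 10 tissues), 18 were negative, that is lower in males, and 6 passed at an adjusted p below 0.05, all of them lower. The median over all genes was itself negative in 9 of 10 tissues, and 15 of the 20 differences lay below the median of their tissue. The other 5 were both genes in kidney and intestine and Mir101b in brain. Over the 10 tissues together 11.7% of gene tests were called lower.

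Bone marrow showed the widest gap. Its 3 male libraries held 65.2, 87.1 and 93.0 CPM of Mir101a, and the 9 female libraries 323 to 2066. For Mir101b the males held 31.8, 40.6 and 51.7 CPM and the females 202 to 937, so neither gene overlapped. Mir101a was lower in males by -2.85 ± 0.60 in log2 (SE; edgeR adjusted p = 9.13e-05) and Mir101b by -2.81 ± 0.58 (edgeR adjusted p = 6.29e-05), where 13.8% of genes were called lower.

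Other measures moved in the same bone marrow libraries. The microRNA share of counts was 31.4 to 38.3% in males and 67.5 to 82.5% in females. The erythroid pair Mir144 and Mir451a summed to 2667 to 4260 CPM in males and 12606 to 76923 in females, and the haematopoietic list (Mir142, Mir223, Mir150) to 8013 to 9621 and 17344 to 37804. With the fit on microRNA genes alone, the differences were -2.67 for Mir101a and -2.61 for Mir101b, and both passed (edgeR adjusted p = 9.80e-05 and 2.86e-05; background 11.7%). The part of erythroid and other blood cells in the result was not tested.

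Lung was the second tissue in which both genes passed. The 4 male libraries held 573 to 637 CPM of Mir101a and 88.3 to 93.9 of Mir101b, and the 9 female libraries 1189 to 6471 and 221 to 1254, with no overlap. The differences were -1.97 ± 0.50 (SE; edgeR adjusted p = 0.00148) and -2.32 ± 0.50 (edgeR adjusted p = 1.09e-04), where 12.6% of genes were called lower. Without animal 14, Mir101a in lung was at -1.46 with an edgeR adjusted p of 0.0516. The sum of Mir34c and Mir449a, markers of ciliated cells, was 2132 to 2852 CPM in the male and 2129 to 5836 in the female lungs, and its part was not tested.

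Muscle was called but less firmly. Its 4 male libraries held 548 to 752 CPM of Mir101a, within the range of the 10 female libraries (533 to 4465). Of Mir101b they held 117, 153, 203 and 285 CPM, and 3 of the 4 lay below every female library (254 to 1204). The differences were -1.43 ± 0.48 (SE; edgeR adjusted p = 0.0264) and -1.41 ± 0.46 (edgeR adjusted p = 0.0234), where 10.1% of genes were called lower. Leaving out each male animal in turn gave -1.43 to -0.90 for Mir101a and -1.61 to -0.83 for Mir101b; the call of Mir101a was lost each time and that of Mir101b without animal 11, 12 or 14. Both were lost without Pancreas 11 (-1.12 and -1.07; edgeR adjusted p = 0.0989 and 0.116). The erythroid pair summed to 40.9 to 321 CPM in male and 106 to 1351 in female muscle, and the 2 skeletal muscle markers to 314 to 748 and 359 to 1719; their part was not tested.

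In liver the male difference was -0.95 ± 0.47 for Mir101a and -1.04 ± 0.46 for Mir101b (SE; edgeR adjusted p = 0.207 and 0.125), against a median of -0.30 over all genes and 8.83% of genes called lower. Without Pancreas 11 they were -1.38 and -1.55 and passed (edgeR adjusted p = 0.0392 and 0.0181; background 11.4%). The 4 male livers held 5174 to 8429 CPM of Mir101b, within the female range of 3592 to 22322. The male livers shared the index range 1 to 24 with 4 female livers, which held 10640.5 to 22322 CPM and did not overlap them. That range had the higher female liver medians of both genes. With females of the same index range alone, an alternative chosen after the data were examined, the differences were -1.51 ± 0.37 and -1.70 ± 0.39 and passed (edgeR adjusted p = 0.00117 and 4.54e-04), where 10.6% of genes were called lower. Mir122, the hepatocyte marker, was at 63374 to 75204 CPM in the male and 10280 to 31963 in the female livers, so every male liver was above every female one. With all females its difference was 1.65 ± 0.73 in log2 (SE, edgeR adjusted p = 0.125) and was not called. The erythroid pair Mir144 and Mir451a summed to 1941 to 3686 CPM in male and 88.7 to 3939 in female livers, which overlap, while Mir144 alone was called higher in males (2.14 in log2; edgeR adjusted p = 0.00117). The part of hepatocyte and erythroid RNA in the result was not tested.

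Spleen, brain, kidney, heart and pancreas had no call with all females, but several were near it. In spleen the differences were -1.15 ± 0.47 and -1.02 ± 0.45 (SE; edgeR adjusted p = 0.0563 and 0.0831; background 17.5%), and Mir101a passed without animal 11 (-1.43; edgeR adjusted p = 0.0497; background 12.3%). In brain they were -0.93 and -0.38 (edgeR adjusted p = 0.153 and 0.623), where 13.3% of genes were called lower. Brain Mir101a passed without animal 12, 13 or 14 (-1.82, -1.84 and -2.05) and without Pancreas 11 (-1.38), and brain Mir101b without animal 14 (-1.47). The share of all genes called lower in brain rose with these settings, to 18.8%, 21.7% and 31.7% without animals 12, 13 and 14 and 22.9% without Pancreas 11, and on unscaled totals brain Mir101b was 0.20. In pancreas Mir101b was at -1.44 ± 0.57 (SE; edgeR adjusted p = 0.123; background 2.66%). It passed without Pancreas 11 (-2.30; edgeR adjusted p = 0.0476; background 2.49%) and without animal 14 (-1.82; background 3.39%). In limma with the animal as a random effect it passed at -1.36 (adjusted p = 0.0243; background 3.81%), a fit that called 910 of 1314 genes higher in male pancreas, against 71 in edgeR. Animal 14 has no pancreas library here, and leaving it out changed the shared scaling and spread. The 3 male pancreas libraries held only 10255, 13795 and 66250 counts in all, with as few as 8 of Mir101b. Without Pancreas 11, 2 of them remain.

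Calls in other tissues also changed with the females used, where index range and animal cannot be told apart. With females of the same range, 15 of the 20 differences passed, all lower in males, where 14.9% of gene tests were called lower. In every tissue but intestine, the females kept were those of the range with the higher medians of both genes. The added calls cannot be told apart from that selection. Whether an index range means the same in pool N541 as in the other pools was not tested. Spleen (-1.85 for Mir101a and -1.68 for Mir101b; edgeR adjusted p = 1.80e-05 and 1.58e-04; background 20.2%) and kidney (-1.10 and -0.998; edgeR adjusted p = 0.0118 and 0.0339; background 19.3%) joined the called tissues for both genes. Brain (-1.14; edgeR adjusted p = 0.0119; background 17.0%) and heart (-1.38; edgeR adjusted p = 0.00333; background 10.7%) joined for Mir101a, and pancreas for Mir101b (-1.74; edgeR adjusted p = 0.0255; background 1.37%). In pancreas that comparison had 2 male and 5 female libraries. Intestine, with 2 male libraries, had positive differences in both fits (0.33 and 0.67 with all females), neither of which passed, and both turned negative with DESeq2 size factors.

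The male difference varied between tissues for both genes, but the tissues also differ in the pool of their females (N467 or N469). Tissue and female pool cannot be fully told apart in this test. In the interaction test over 10 tissues, the adjusted p was 0.0240 for Mir101a and 4.96e-04 for Mir101b (edgeR's quasi-likelihood F test), where 36.5% of genes passed. Blocking by animal gave 0.0776 for Mir101a and leaving out Pancreas 11 gave 0.0681, so that call rests on those choices. The same settings gave 8.45e-04 and 0.00175 for Mir101b.

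**Figure D4:**
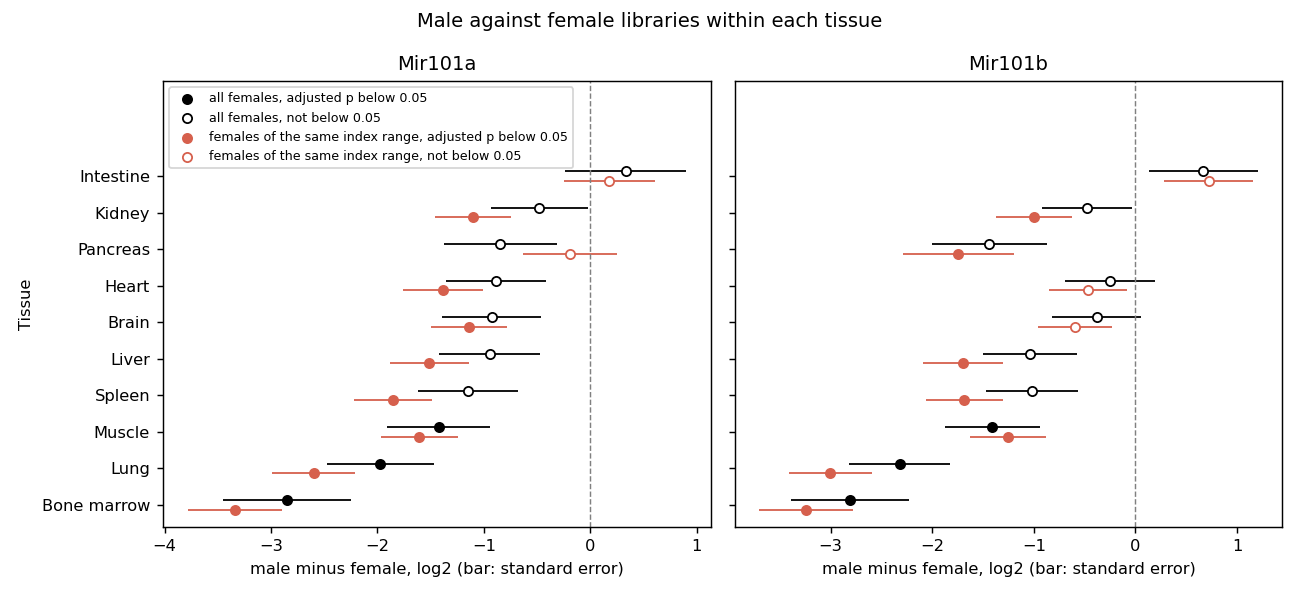
Male minus female differences (horizontal axis, log2, with standard errors) are shown by tissue for Mir101a and Mir101b, against all females (black) and against females of the same index range (red); filled points have an edgeR adjusted p below 0.05. With all females the filled points are bone marrow, lung and muscle.

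The ratio differed less between males and females than either level in 7 of 10 tissues; brain, heart and intestine were the other 3. In liver the log2 ratio was 1.29 ± 0.12 in males (SD, n = 4) and 1.30 ± 0.29 in females (n = 9; exact permutation p = 0.989, two-sided). In bone marrow it was -0.99 ± 0.13 (n = 3) and -0.95 ± 0.17 (n = 9; exact permutation p = 0.718). Lung was an exception at -2.72 ± 0.05 in 4 males and -2.41 ± 0.15 in 9 females, a difference of -0.30 with no overlap (exact permutation p = 0.00699, adjusted over 10 tissues 0.0400). Brain differed the other way, by 0.51 (-1.84 ± 0.11 in 4 males and -2.36 ± 0.32 in 10 females; exact permutation p = 0.00799, adjusted 0.0400), with an overlap of the groups. Heart differed by 0.53 (-1.93 ± 0.12 in 4 males and -2.47 ± 0.40 in 9 females), which did not pass (exact permutation p = 0.0266, adjusted 0.0886). Neither call is firm: the brain call was lost without any 1 of animals 11 to 14 and the lung call without animal 11, 13 or 14, with differences of 0.47 to 0.55 and -0.32 to -0.29. Within the same index range no tissue passed, although 5 of 10 did not overlap: lung (-0.40), brain (0.55) and heart (0.89), each with an exact permutation p of 0.0714 after adjustment, and pancreas (-1.53) and intestine (0.60), each with 0.0794. The smallest unadjusted p the design allows was 0.0286 in lung and heart and 0.0476 in pancreas and intestine, and those 4 were at it.

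The genes nearest to each member in tissue pattern were chosen by Pearson's r of log2(median CPM + 1) over 11 tissues among 363 microRNA genes, a description over points that share animals and pools. Mir101a was most like Mir29c (r = 0.918), Mir345 (0.835), Mir29b-2 (0.833), Mir29b-1 (0.796) and Mir34a (0.778). Mir29c, a microRNA known for repressing collagen messages, had medians of 957 CPM in brain, 913 in pancreas and 420 in liver. Mir101b was most like Mir122 (r = 0.801), Mir1843a (0.767), Mir101a (0.745), Mir28a (0.706) and Mir345 (0.701). The likeness to Mir122 rests on liver: by rank Mir122 had a rho of 0.536, and Mir101a, with 0.873, was first.

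Other liver microRNAs place the Mir101b lead in scale. In a list of 8, chosen with earlier results known, liver had the highest median of 4: Mir122, Mir192, Mir1948 and Mir21a. Mir122 exceeded the next tissue by far (26003 against 5.01 CPM), Mir1948 by 40.0-fold, Mir192 by 1.69-fold and Mir21a by 1.56-fold, so the 5.71-fold lead of Mir101b lies between the last 2 and the first 2. Mir148a and Mir802 were higher in pancreas, and Mir194-1 and Mir194-2 in intestine. In male livers 1 of the 8 was called lower (Mir148a, -2.50; edgeR adjusted p = 6.40e-04) and 1 higher (Mir194-1, 1.43; edgeR adjusted p = 0.0475), and the median of the list was 0.71, against -0.30 over all genes.

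Other genes with a related seed were counted separately. The first 2 products below share bases 2 to 7 with a member, and the third lies within the hairpin of one.
miR-144-3p: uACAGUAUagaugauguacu
miR-582-5p: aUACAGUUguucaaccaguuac
miR-101c: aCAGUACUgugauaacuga
The first shares bases 2 to 7 with miR-101a-3p and the second with miR-101b-3p; miR-101c, annotated at chr9:3038669-3038743, is identical to a stretch of the Mir101a hairpin. Mir144, an erythroid microRNA, had its highest median in bone marrow (1852 CPM) and 150 CPM in liver. Mir582 was highest in brain (258 CPM) and at 2.08 in liver. Mir101c had 1055 counts in all, at most 63 in a library, against 2398807 for Mir101a, and since its sequence lies within Mir101a's these counts cannot be assigned to it with certainty. Neither Mir144 nor Mir582 had its highest median in liver, where Mir101b was at 8429 CPM.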

How the data were processed

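Small RNA libraries of 11 mouse tissues were read from the table of raw counts per small RNA gene that the authors deposited, 1 column per library, with no normalisation. Per the submitters' processing notes, STAR 2.5.1, featureCounts and mm10/GRCm38 were used; how strand and multiply matching reads were handled is not given in the sources used here. Per the labels' protocols, libraries came from a TruSeq small RNA kit on total RNA, and ligation can favour some products.

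Of 139 samples listed, 5 were not analysed here. Of the 134 columns, 131 were matched to 1 sample and 3 to a testis-labelled animal, of which the library is unknown. Sex was read from the column names.

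Levels were CPM of the library total. Sex was tested with edgeR 4.0.16 (quasi-likelihood, TMM factors 0.216 to 4.62, 1314 genes after a minimum count of 10; limma 3.58.1, R 4.3.3), adjusted within each tissue, and the ratio by exact permutation. P-values measure the spread between libraries of different animals within a tissue and sex, in which index range and animal are mixed. In edgeR that spread was estimated over all tissues, which share animals. The edgeR fit was also run on counts simulated from its own means and spread, with changes placed in liver only. That simulation held no effect of index range or animal, so it cannot speak to them. Members and lists were chosen with earlier results of these data known. Named are the 2 members, Mir101c, genes sharing mature bases 2 to 7 or 2 to 8, the 5 most alike per member in tissue pattern, and the liver list. Replicate numbers are animals, so libraries pair across tissues; their consensus correlation was 0.0290. Alternatives included other scalings, DESeq2 1.42.0, the animal as a block and leaving out libraries.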

Additional observations from a re-analysis of the deposited data

Results flagged for a closer look

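Liver 1 held 10349 CPM of Mir101a, the highest of the 9 female liver libraries and far from the next, at 5975; its Mir101b was 22322 CPM, also the highest. Spleen 9 had a log2 ratio of Mir101b to Mir101a of -0.92, the highest of 10 female spleen libraries. These were 2 libraries in 51 groups and measures looked at, where chance alone picks out about 1 in 20.

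The difference between male and female libraries was not the same in all tissues, with an adjusted p of 0.0240 for Mir101a and 4.96e-04 for Mir101b (edgeR's interaction test), where 36.5% of genes passed. The Mir101a call was lost with the animal as a fixed block (0.0776 in the same test) and without Pancreas 11 (0.0681). The pool of the females differed between tissues too, and its part was not tested. The male difference was widest in bone marrow (-2.85 and -2.81) and positive, without passing the test, in intestine (0.33 and 0.67).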

How the results depend on the processing

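Leaving out each male animal in turn gave these ranges of the male minus female log2 difference: Mir101a in brain -2.05 to -1.24, lung -1.86 to -1.46, muscle -1.43 to -0.90 and spleen -1.43 to -1.001; Mir101b in brain -1.47 to -0.73, muscle -1.61 to -0.83 and pancreas -2.08 to -1.39. For the log2 ratio they were -0.11 to 0.012 in bone marrow, 0.47 to 0.55 in brain, -0.056 to 0.035 in liver, -0.32 to -0.29 in lung and -0.25 to 0.023 in muscle. Bone marrow differences of both genes and the lung difference of Mir101b kept their call in all alternatives run. The fit without libraries under 100000 counts could not be made for pancreas.

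Further differences passed, or lost their call, as follows; the cause was not tested. On microRNA genes alone, Mir101a passed in brain (-1.32), kidney (-1.42), liver (-1.46), pancreas (-1.65) and spleen (-1.62) and Mir101b in kidney (-1.42), liver (-1.48), pancreas (-2.33) and spleen (-1.50), Mir101a in muscle did not (-1.19), intestine turned to -0.49 and -0.067, and 760 gene tests were called over 10 tissues in place of 2454. With no filter Mir101a in brain (-1.59) and Mir101b in pancreas (-2.29) passed and muscle did not (-1.01 and -0.97). Without Pancreas 11, brain (-1.38) and liver (-1.38) passed for Mir101a, liver (-1.55) and pancreas (-2.30) for Mir101b, muscle did not (-1.12 and -1.07), and the interaction of Mir101a was at 0.0681. With the DESeq2 Wald test, Mir101a passed in heart (-1.33), liver (-1.61), pancreas (-1.30) and spleen (-1.99) and Mir101b in liver (-1.63), pancreas (-2.13) and spleen (-1.86), while intestine turned to -0.50 and -0.050 and Mir101b in brain to 0.011. DESeq2 size factors in edgeR gave -1.61 in liver and -1.99 in spleen for Mir101a and -1.63, -2.10 and -1.86 in liver, pancreas and spleen for Mir101b, all passing, with intestine at -0.50 and -0.051 and brain Mir101b at 0.028. Without libraries under 100000 counts, liver passed (-1.46 and -1.61), muscle did not (-1.12 and -1.07), the ratio calls of brain (0.47) and lung (-0.30) were lost and the liver ratio was 0.058. Unscaled totals gave spleen -1.68 and -1.54 and pancreas Mir101b -2.03, all passing, and brain Mir101b 0.20. With each tissue fitted alone, pancreas Mir101b passed (-1.98), muscle Mir101b did not (-0.91) and brain Mir101b was 0.049.

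With the animal as a replicate block (limma-voom, random effect), pancreas Mir101b passed at -1.36 and 4194 gene tests were called; with the animal as a fixed block the interaction of Mir101a was at 0.0776, and the block changed no other call of the 2 genes. With females of the same index range, chosen after seeing the data, Mir101a passed in brain (-1.14), heart (-1.38), kidney (-1.10), liver (-1.51) and spleen (-1.85) and Mir101b in kidney (-0.998), liver (-1.70), pancreas (-1.74) and spleen (-1.68), the ratio calls of brain (0.55) and lung (-0.40) were lost, and the ratio differences of bone marrow (0.092), kidney (0.14) and muscle (0.24) turned positive. Except in intestine, the females kept were those of the range with the higher medians of both genes.

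For the levels, TMM scaling gave a liver lead of 12.3-fold (over muscle) for Mir101b and a pancreas median of 0.628 of kidney's for Mir101a. In CPM the pancreas median of Mir101a was 0.727 of brain's in animals 11 to 14 alone and 0.742 at indexes 25 to 48, both with Pancreas 11. Without it the medians were 4278 against 5232 CPM in brain in those animals, and 9548 against 8695 at those indexes. The liver lead was 3.22-fold (over pancreas) at indexes 1 to 24. In animals 11 to 14 alone, the lowest other tissue, bone marrow, was at 0.655 (Mir101a) and 0.532 (Mir101b) of the testis-labelled median. Liver stayed first for Mir101b and in the ratio under all alternatives run. For subsets of libraries this follows from the lack of overlap with other tissues. Of the 5 genes most alike in pattern, rank correlation shared 3 for Mir101a and 2 for Mir101b, and TMM scaling 3 for Mir101b. Depth limits pancreas, where a library held as few as 8 counts of Mir101b.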
